A study of Caenorhabditis elegans with 6 samples.

Results

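Chromatin accessibility was examined at 10 Caenorhabditis elegans genes of heterotrimeric G protein signalling in neurons: goa-1, egl-30, gsa-1, eat-16, egl-10, rgs-1, rgs-2, ric-8, egl-8 and dgk-1. A peak was counted for a gene when its summit lay inside the gene, or when the nearest end of any protein-coding gene belonged to it. By this rule the genes, 10 of 19971 protein-coding genes in the annotation, took 7 of 2313 peaks in neuronal nuclei and 8 of 2683 peaks in total nuclei. The genes were chosen by peak presence and fold enrichment in these same lists, so the values below are descriptions and carry no test.

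The nuclei came from strain OH11061, grown at mixed stages and mostly larval. All samples, total nuclei included, carry the transgene otIs381, in which a promoter fragment of ric-19 drives nuclear GFP across the nervous system. The neuronal group comprised 3 samples sorted for GFP together with DAPI, a DNA stain, and the total group 3 samples sorted for DAPI alone, with 50000 nuclei a sample. Open DNA was tagged with the Tn5 transposase (ATAC-seq). The deposited files hold 1 peak list per group, so no spread between samples stands behind any value. The total gate also takes in neurons, and a site open in more nuclei cannot be told apart from a site more open in each nucleus.

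In C. elegans motor neurons, several kinds of G alpha subunit set how much transmitter is released. The Gq protein EGL-30 activates the phospholipase C EGL-8, which makes diacylglycerol, a lipid that recruits the vesicle priming factor UNC-13, and the kinase DGK-1 removes that lipid. The Go protein GOA-1 opposes this branch, and the Gs protein GSA-1 acts through adenylyl cyclase and cAMP. Regulators of G protein signalling (RGS proteins) speed GTP hydrolysis and so switch the alpha subunits off. EAT-16 acts on EGL-30, whereas EGL-10, RGS-1 and RGS-2 act on GOA-1. RIC-8 is a chaperone and exchange factor for G alpha subunits.

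Open sites were found at 6 of the 10 genes in the neuronal list and at 7 in the total list, against 11.3% of all protein-coding genes in the neuronal and 13% in the total list. All 3 G alpha genes, the RGS genes eat-16 and egl-10, and dgk-1 had peaks in both lists. The GOA-1 regulator rgs-1 had a peak in the total list and none in the neuronal list. No peak of either list was assigned to rgs-2, ric-8 or egl-8, and 13.5% of all genes had a peak in either list. Long genes more often had a peak. The median span was 6720 bp for these genes and 2006 bp for all protein-coding genes. Among the 2329 genes of 6000 bp or more, 26.6% had a neuronal peak and 29.97% a total peak.

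**Figure D1:**
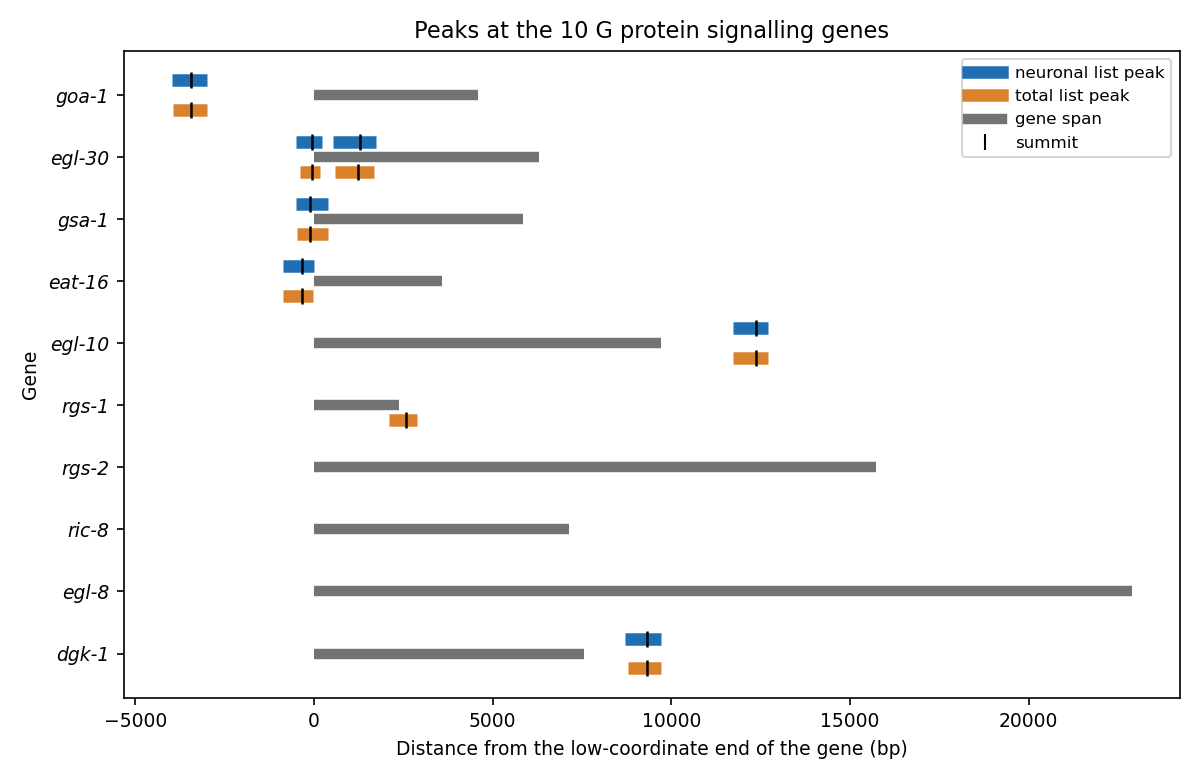
Peaks at the 10 genes, drawn as distance in bp from the low-coordinate end of each gene (x axis), with 1 gene per row, neuronal peaks above and total peaks under the grey gene span, and a tick at each summit. The 7 neuronal peaks each sit over a total peak, rgs-1 has a total peak alone, and 1 of the 7 neuronal summits, the inner one of egl-30, lies inside its own gene.

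The Gq gene egl-30 (CELE_M01D7.7) spans 6305 bp of chromosome I on build ce11, from 1835661 to 1841965, and was the one member with 2 peaks per list. Its outer peak ran from 1835163 to 1835895 in the neuronal list and from 1835277 to 1835841 in the total list. Both summits lay 47 bp outside the low-coordinate end of the gene. The peak also covers the end of the ribosomal protein gene rpl-27 and the small coding gene C53H9.4, which lies within egl-30, so it cannot be given to egl-30 alone. The inner peak ran from 1836200 to 1837400 in the neuronal list and from 1836242 to 1837349 in the total list. Its summit lay 1275 bp inside egl-30 in the neuronal list and 1238 bp inside in the total list, and the nearest gene end there is that of C53H9.4. The annotation used gives no strand, exons or UTRs, so 5′ and 3′ ends and introns were not told apart here.

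At the Gs gene gsa-1 (chromosome I, 1068484 to 1074343) the neuronal peak ran from 1067992 to 1068863 and the total peak from 1067997 to 1068869. Both summits fell on the same base, 103 bp outside the low-coordinate end, and the peaks reach into the gene. The next coding gene, vps-4, ended 1482 bp from the summit.

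The Go gene goa-1 (chromosome I, 7522116 to 7526712) had its peak far from the gene, at 7518136 to 7519135 in the neuronal list and 7518157 to 7519120 in the total list. Both summits lay 3444 bp outside the low-coordinate end of goa-1 and 3546 bp from an end of C26C6.9. The assignment therefore rests on a margin of about 100 bp. A small nucleolar RNA gene, C26C6.13, lies under the peak, 150 bp from the summit.

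Of the RGS genes, eat-16 (chromosome I, 9722716 to 9726284) had its summit 337 bp outside the low-coordinate end in both lists. Its peak ran from 9721849 to 9722721 in the neuronal list and from 9721854 to 9722675 in the total list. The whole site, like eat-16 itself, lies within the longer gene ocrl-1, and the noncoding RNA genes C16C2.8 and C16C2.7 overlap the summit. The egl-10 peak (chromosome V, 12465010 to 12465992 in the neuronal list and 12465015 to 12466006 in the total list) was 2645 bp beyond the high-coordinate end of the gene, which spans 12453290 to 12463008. The next coding gene there, F28C1.3, was 3010 bp away, and the noncoding RNA gene F28C1.14 lay 91 bp from the summit.

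The peak of dgk-1, which encodes the diacylglycerol kinase, lay on chromosome X from 992610 to 993616 in the neuronal list and from 992691 to 993615 in the total list. Its summit was 1770 bp beyond the high-coordinate end of the gene (983903 to 991456) in the neuronal list and 1769 bp beyond it in the total list. Leaving aside piRNA genes, which were not searched, no noncoding RNA gene lay nearer than 18275 bp to the neuronal summit.

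Most member sites lay between coding genes, as did most sites of each list. Over 1000 bp from every coding gene end were 4 of 7 neuronal and 4 of 8 total summits, against 35.1% and 33.8% of all summits. These are the sites of egl-10, goa-1 and dgk-1 and the inner site of egl-30. That inner summit lies within egl-30, and an end of C53H9.4 was 1064 bp away in the neuronal and 1027 bp in the total list. Inside a coding gene lay 2 of 7 neuronal and 2 of 8 total summits, against 27.4% and 27.1% of all. An ncRNA or snoRNA gene lay under 3 of 7 neuronal and 4 of 8 total peaks, against 29.1% and 27% of all peaks.

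The authors' fold enrichment, the ratio of reads at the summit to the local background, fell in a narrow band for most of these genes. In both lists the peaks of eat-16, goa-1, dgk-1, egl-10 and gsa-1 lay above the list medians, which were 10.5 for all neuronal and 10.7 for all total peaks. The peak of eat-16 had a fold of 12.2 in the neuronal list and 12.6 in the total list. For goa-1 the fold was 11.8 in neuronal nuclei and 12.9 in total nuclei. The dgk-1 peak reached 11.8 in neuronal and 12.5 in total nuclei, a pair of values that again differ little.

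Fold at egl-10 was 11.5 in the neuronal list and 12.96 in the total list, the highest of the members there. At gsa-1 it was 11.4 in neuronal nuclei and 11.9 in total nuclei. Both egl-30 peaks lay under the list medians. The inner one had a fold of 8.94 in neuronal nuclei and 9.70 in total nuclei. The outer one had 5.68 in neuronal nuclei and 5.05 in total nuclei, among the lowest 2.40% of neuronal peaks and the lowest 1.32% of total peaks by percentile.

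**Figure D2:**
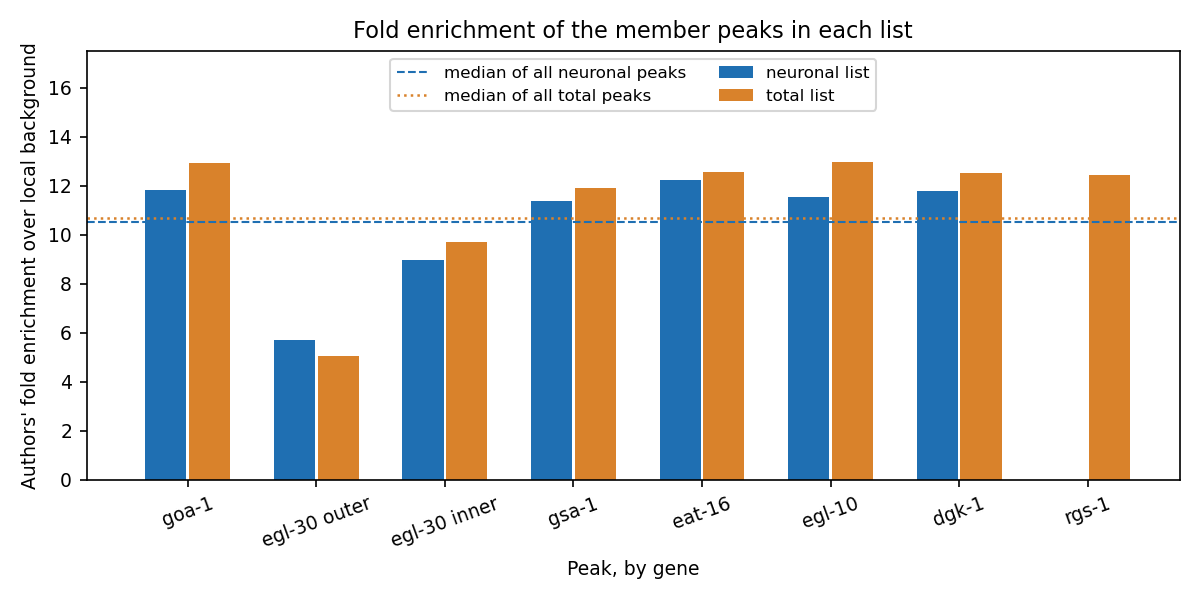
Authors' fold enrichment over local background (y axis, from 0) for each member peak (x axis), with the neuronal list left of the total list and dashed and dotted lines at the medians of all neuronal and all total peaks. The outer egl-30 peak is the 1 pair higher in the neuronal list, at 5.68 against 5.05, and rgs-1 has a bar of 12.4 in the total list alone.

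At egl-30 the low fold stood beside many reads and a high local background. As fold is the ratio of reads to background, these values are not independent, and the source of the high background was not tested. The reads over each summit (pileup) and the local background were recovered from the deposited fold and p-value, and every count carries counting error only. The intervals given for counts treat reads as independent, and the sources used here do not give the treatment of duplicates. The inner egl-30 summit held 6329 reads in the neuronal list (exact Poisson 95% interval 6174 to 6487) and 4594 in the total list (4462 to 4729), at the 98.98th percentile of the neuronal list and the 99.4th of the total list. Over the outer summit lay 3934 reads in neuronal nuclei (3812 to 4059) and 2352 in total nuclei (2258 to 2449). Background at the outer peak was 691.2 reads in neuronal and 464.9 in total nuclei, against list medians of 183.8 for neuronal and 113.2 for total peaks. By percentile of background both egl-30 peaks stood above 99% of their list.

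The other members spread along the range of read depth. At gsa-1 the pileups were 5508 reads in neuronal and 3908 in total nuclei, and at eat-16 they were 5062 in neuronal and 3469 in total nuclei. Lower values were found at goa-1, with 3842 reads in neuronal and 2875 in total nuclei, and at egl-10, with 3084 in neuronal and 2264 in total nuclei. The dgk-1 site had the fewest reads of the shared sites, 2080 in neuronal and 1721 in total nuclei. Its background was also the lowest of the shared sites, at 175.6 reads in neuronal and 136.6 in total nuclei.

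**Figure D3:**
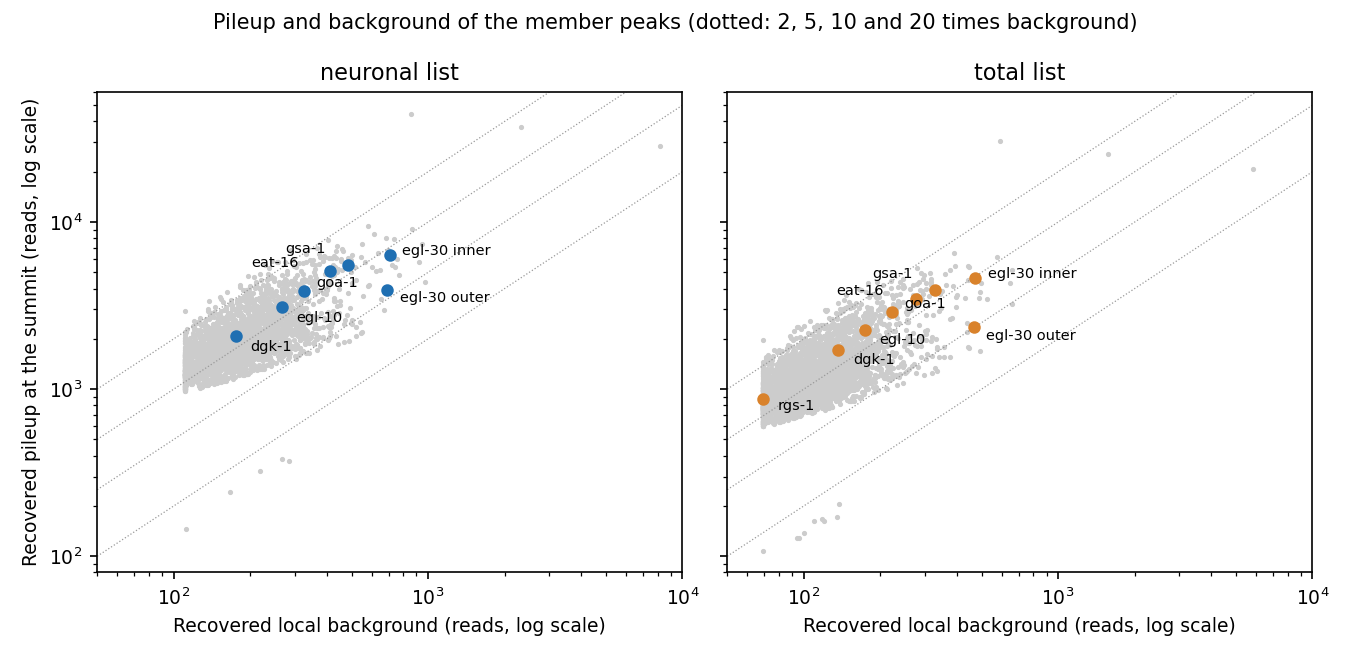
Recovered pileup at the summit (y axis, reads, log scale) against recovered local background (x axis, reads, log scale) for all peaks in grey and member peaks in colour, neuronal list left and total list right. Most members lie along the line of 10 times background, the outer egl-30 peak lies near 5 times, and rgs-1 stands at the left edge of the total list, where the background is lowest.

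The shared member sites differed little between the lists. All 7 neuronal peaks overlapped a total peak, and 95 of all neuronal peaks (4.11%) overlapped none. The summit was the same base in 5 of 7 pairs, against 52.5% of all 2199 pairs. It differed by 1 bp at dgk-1 and by 37 bp at the inner egl-30 site. No member pair differed by more than 1.2 times in fold, a size that 3.14% of all pairs passed.

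Fold was lower in the neuronal list in 6 of 7 member pairs, but so it was in 83.6% of all pairs. The median log2 ratio, neuronal over total, was -0.09 over the member pairs and -0.09 over all pairs. The median ratio of pileups was 1.38 over the member pairs and 1.48 over all pairs. Among the members it was lowest at dgk-1, at 1.21, where the ratio of backgrounds was also the lowest, at 1.29. The median ratio of backgrounds was 1.49 over the member pairs and 1.58 over all pairs. Of the 7 counting intervals of the log2 fold ratio, 5 held its median over all pairs. These 95% intervals are exact binomial ones on the paired pileups, with reads treated as independent and the background taken as known. The fold ratio was lowest at egl-10, with a log2 value of -0.17 (-0.25 to -0.09), and the upper bound lay just under the median of all pairs. At goa-1 it was -0.13 (-0.20 to -0.06), at dgk-1 -0.09 (-0.18 to 0.01) and at eat-16 -0.04 (-0.10 to 0.03). For gsa-1 it was -0.06 (-0.12 to -0.003).

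The outer egl-30 site went the other way. Its log2 ratio was 0.17 (0.10 to 0.25), at the 99.7th percentile of all pairs, while the inner site of the same gene gave -0.12 (-0.17 to -0.06), at the 35.9th percentile. These intervals hold counting error only and no spread between samples, so they do not test whether the neighbouring sites differ. As the outer site is shared with rpl-27, its value cannot be read as that of egl-30. In neuronal nuclei the inner peak had 1.57 times the fold of the outer one, and in total nuclei 1.92 times.

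**Figure D4:**
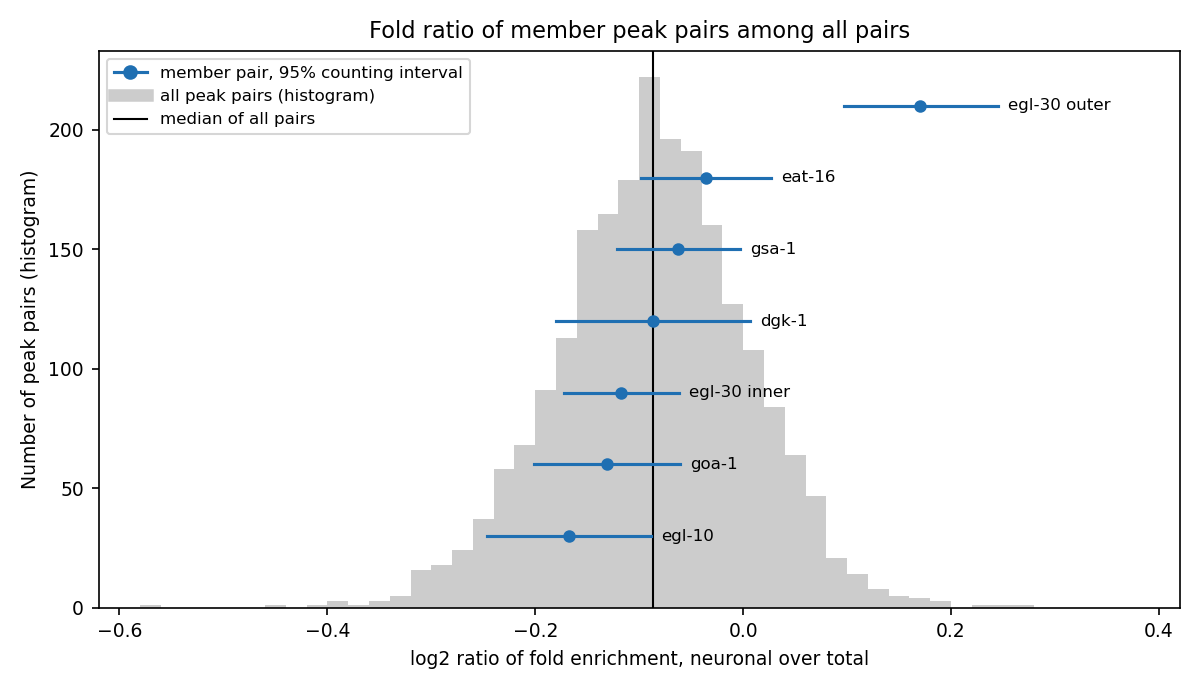
Log2 ratio of fold enrichment, neuronal over total (x axis), of the 7 member pairs as points with 95% counting intervals, over a histogram of all 2199 peak pairs (y axis, number of pairs), with a line at the median of all pairs. The outer egl-30 site, at 0.17, lies apart to the right, and the other member pairs run between -0.17 and -0.04.

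Widths differed little between the lists, with 1 exception. The neuronal peak was wider in 5 of 7 member pairs, against 48.7% of all pairs, and the median width ratio was 1.06 over the member pairs and 1 over all pairs. The outer egl-30 peak was 733 bp wide in neuronal and 565 bp in total nuclei, a ratio of 1.30. The inner one measured 1201 bp in neuronal and 1108 bp in total nuclei. At dgk-1 the widths were 1007 bp in neuronal and 925 bp in total nuclei, and at eat-16 they were 873 bp in neuronal and 822 bp in total nuclei. The remaining pairs were within 36 bp of each other. The goa-1 peak measured 1000 bp in neuronal and 964 bp in total nuclei, the egl-10 peak 983 bp in neuronal and 992 bp in total nuclei, and the gsa-1 peak 872 bp in neuronal and 873 bp in total nuclei.

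The rgs-1 site was absent from the neuronal list. It is the 1 member in 10 with a total peak and no neuronal peak, against 2.18% of all genes, and its peak is 1 of 8 total member peaks with no overlapping neuronal peak, against 17.4% of all total peaks. No member had a neuronal peak alone (0.501% of all genes). The peak ran on chromosome III from 10016281 to 10017062. Its summit was 204 bp beyond the high-coordinate end of rgs-1 (CELE_C05B5.7, 10014193 to 10016558) and inside the noncoding RNA gene C05B5.13 (10016678 to 10016878). The next neuronal summit lay 77998 bp from the gene.

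In the total list the rgs-1 peak had a fold of 12.4, like those of eat-16 and dgk-1, but far fewer reads. Its pileup was 870 reads (exact Poisson 95% interval 813 to 930), at the 18.5th percentile of the total list. The background of 69.1 reads is the lowest the list holds, a value found within 0.2 reads at 206 total peaks. Among the 467 total peaks without a neuronal partner its fold ranked 2nd, above their median of 8.16. Among the 268 total peaks of the same 10% of the list by p-value, 25 had no neuronal partner (9.33%). The 206 total peaks at the lowest background had a median fold of 11.4. Of these, 131 had a lower fold than the rgs-1 peak, and 67 had no neuronal partner. The same lowest value in the neuronal list was 110.3 reads, 1.60 times as high. Only 5 neuronal peaks had a pileup under 870 reads and 126 a lower −log10 p than the rgs-1 peak has in the total list. Scaled by the ratio of 1.60 the pileup would be 1390 reads, and 410 neuronal peaks (17.7%) had fewer. The median pileup ratio over all pairs was lower, at 1.48, and would give fewer reads. A site missing from a list kept for reproducibility is not shown to be closed.

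The members without a peak differed in how far away the nearest open site was. The gene rgs-2, which encodes a further GOA-1 regulator (chromosome X, 12712653 to 12728391), overlaps the coding gene nhr-27. Its nearest summit was 42148 bp away in the neuronal and 42151 bp away in the total list. At egl-8, the phospholipase C gene near the end of chromosome V (20818 to 43704), the distances were 9778 bp in the neuronal and 9782 bp in the total list. The rgs-2 gene, at 15739 bp, is longer than 98.2% of coding genes, and egl-8, at 22887 bp, longer than 99.3%. The chaperone gene ric-8 (chromosome IV, 2642977 to 2650111) had its nearest neuronal summit 3121 bp away, assigned to mdf-2, with a fold of 7.94. That peak has no partner in the total list, where the nearest summit was 5114 bp away and assigned to gfrl-1, with a fold of 6.79.

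Values of other genes of the pathway, listed by role, are given for comparison with the 10 members, which were chosen with their peaks in view. All 94 listed genes matched the annotation. A peak was found at 20 of the 94 in the neuronal list (21.3%) and at 23 in the total list (24.5%). All protein-coding genes gave 11.3% and 13% in the same lists and those of 6000 bp or more 26.6% and 29.97%, and the median span of the 94 genes was 6460 bp. Both lists had one at 19, the neuronal list alone at 1 and the total list alone at 4. Over their 23 peak pairs the median log2 fold ratio was -0.07, with 20 lower in the neuronal list, beside -0.09 over all pairs.

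Among the further G alpha genes 2 of 18 had peaks, the same count in both lists. The nematode-specific subunit gene gpa-7 had a fold of 14.8 in neuronal and 17.4 in total nuclei. For gpa-1 the highest of 3 peaks had 11.1 in neuronal and 10.8 in total nuclei. The beta and gamma genes had peaks at 3 of 4, again in both lists. Fold at gpc-1, a gamma subunit gene, was 13.5 in neuronal and 14.4 in total nuclei. The beta subunit gene gpb-1 had 10.2 in both, and the gamma gene gpc-2 had 7.24 in neuronal and 8.49 in total nuclei. No peak was assigned to gpb-2, whose product partners EGL-10 and EAT-16.

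Further RGS and regulator genes had peaks at 4 of 19 in neuronal and 5 of 19 in total nuclei. The receptor kinase gene grk-1 had a fold of 12.7 in neuronal and 13.3 in total nuclei, and the axin gene pry-1 had 8.84 in neuronal and 9.13 in total nuclei. For gpr-2, which acts on G alpha in embryonic spindle positioning, it was 8.06 in neuronal and 9.04 in total nuclei. Another 3 of this group were found in 1 list only. They were rgs-5 in the neuronal list, with a fold of 6.35, and rgs-6 (9.84) and ags-3 (8.65) in the total list. The ags-3 summit lies inside that gene but nearest to an end of ift-81.

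Downstream of Gq and diacylglycerol, 2 of 14 genes had a neuronal peak and 3 a total peak. Peaks within plc-1, a phospholipase C gene, had a fold of 14.4 in neuronal and 15.3 in total nuclei, with the neuronal summit nearest to an end of F31B12.3. Those within the protein kinase C gene pkc-2 had 12.7 in neuronal and 13.8 in total nuclei. A peak at unc-13, the diacylglycerol target in vesicle priming, was in the total list alone, with a fold of 11.003.

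The cAMP branch had peaks at 6 of 13 genes in the neuronal list and 7 in the total list. By neuronal fold the highest were crh-1, the CREB gene, with 12.7 in neuronal and 12.9 in total nuclei, the cyclase gene acy-3 with 11.7 in both, and unc-31, which encodes the dense-core vesicle factor CAPS, whose highest peak had 11.002 in neuronal and 13.97 in total nuclei. The adenylyl cyclase gene acy-1, which acts with GSA-1 and was picked after its values were seen, had 10.7 in neuronal and 12.9 in total nuclei. Peaks of kin-1, the protein kinase A catalytic subunit gene, were in the total list alone, the higher at a fold of 7.71.

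Receptor genes had peaks at 3 of 26 in either list. The tyramine receptor gene ser-2 had 13.5 in neuronal and 13.9 in total nuclei, the serotonin receptor gene ser-1 12.9 in neuronal and 14.04 in total nuclei, and the GABA-B receptor gene gbb-1 9.76 in neuronal and 10.1 in total nuclei.

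**Figure D5:**
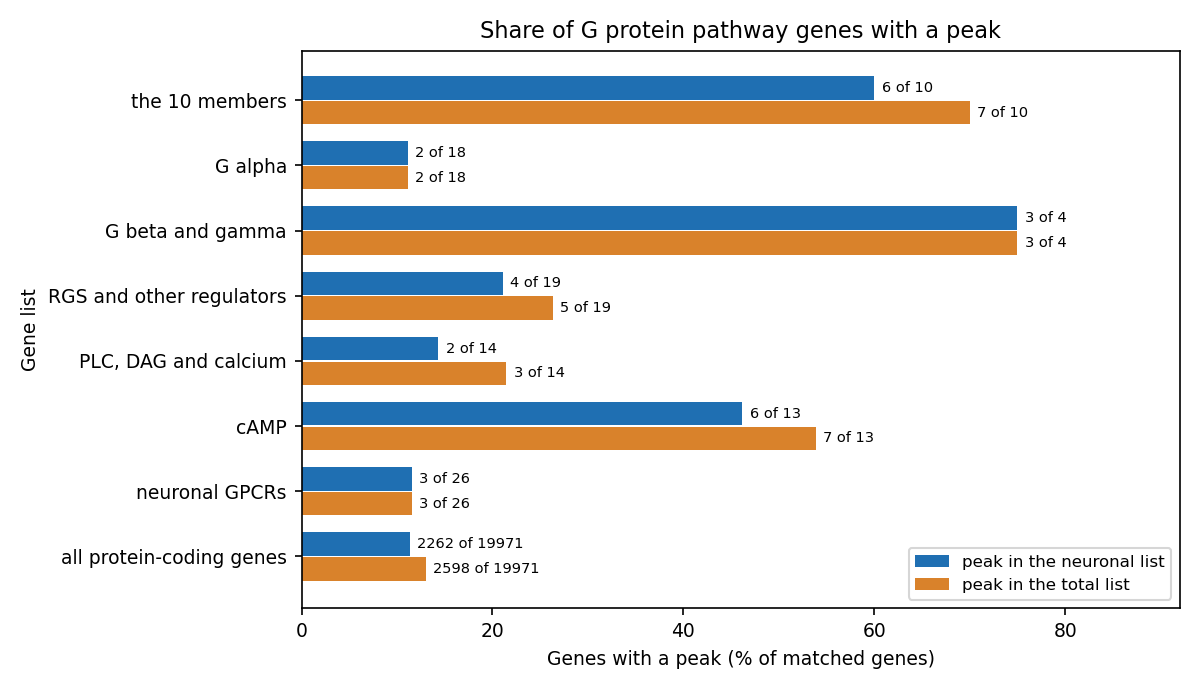
Percentage of genes with a peak (x axis) in the neuronal list (upper bar) and the total list (lower bar) for the 10 members, 6 further lists of G protein pathway genes and all protein-coding genes (y axis), with counts beside the bars. In no list was the neuronal count above the total count, and the 10 members were chosen with these peaks known.

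The label of the sort was checked against marker genes. Of 14 neuronal marker genes 5 had a peak in the neuronal list and 8 in the total list, beside the 11.3% and 13% of all genes. They include ric-19, whose promoter also drives the transgene, with the highest fold of each list, 51.5 in neuronal and 51.9 in total nuclei. How far reads from the transgene's promoter fragment add to this peak was not tested. No peak was found in either list for rab-3, unc-10, ric-4, unc-11, snt-1 and rgef-1. For snb-1, egl-3 and maco-1 a peak was found in the total list alone. The median span of the 14 neuronal markers was 6462 bp, and all genes of 6000 bp or more gave 26.6% and 29.97%. Fold was lower in the neuronal list in 5 of 6 neuronal marker pairs. Their median log2 ratio was -0.09, beside -0.09 over all pairs. Of 5 markers each, body-wall muscle had 0 in the neuronal and 2 in the total list (unc-15 and mup-2), intestine 1 in both (elt-2), germline 1 in the neuronal list alone (glh-1), and hypodermis and pharyngeal muscle 0 in both. The elt-2 pair, the 1 pair of the intestine markers, had a fold of 5.89 in neuronal and 5.59 in total nuclei. The part of other cell types in the values above was not tested.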

How the data were processed

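ATAC-seq reads of 3 neuronal and 3 total samples were processed by the submitters with MACS2, Picard, Bowtie2 2.2.6, bedtools 2.26, cutadapt 1.9.1 and SAMtools 1.7. These tools and the genome build, ce11, are listed without roles or parameters, per the submitters' processing notes. The sources used here give neither the Tn5 shift, the treatment of duplicates, the way samples were combined nor the depth per sample. The authors deposited 1 peak list per group, named for an irreproducible discovery rate (IDR) threshold of 0.1. In each list the authors' score is a scaled IDR value, and it was 1000 for every member peak. The deposited fold enrichment is a ratio to local background, and the deposited −log10 p-value was used for ranks within a list. Peak summits came from the deposited offset.

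Genes came from the RefSeq table of assembly WBcel235, the sequence of ce11, with no strand or exons. Peaks were paired when they overlapped by at least 1 bp, one to one. Pileup and background were recovered by solving MACS2's default fold formula (pseudocount 1) and Poisson tail. Pileups came out whole within 0.02 reads for 99.8% of neuronal and 99.9% of total peaks. The recovery code was tested on data simulated with the same formulas, which checks the code and not whether the deposited values follow them. Named pathway genes are those with a peak in 1 list only and the 3 of highest neuronal fold per list. The genes acy-1 and gpb-2 were named outside this rule. The 10 genes, the gene lists and the settings were chosen with earlier results of these data known. Promoter overlap and motifs were not analysed here. Another list of pathway genes is not reported here. Alternatives changed assignment, pairing, peak strength and scaling. Python 3.11.15, numpy 2.4.6, scipy 1.17.1, pandas 2.3.3 and matplotlib 3.10.9 were used.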

Additional observations from a re-analysis of the deposited data

How the results depend on the processing

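No paired analysis was possible because each group has a single pooled list, and samples could not be left out one by one. Of 59 values under alternatives, 45 stayed within 1.5 times the main count, within the counting interval of the main ratio, or within 1 SD of the main width ratio. Another 2, medians in percentile points within the paired peaks, were 0 by fold and -0.82 by p-value. Counting only summits inside a gene left 1 member gene and 1 member peak in each list (egl-30), 0 member peaks without a neuronal partner, and 7 other pathway genes in the neuronal and 10 in the total list. Counting summits inside gene spans widened by 2000 bp left 4 member genes in the neuronal list and 5 in the total list. The genes goa-1 and egl-10 then had no peak, though these counts are among the 45 values. When genes of every biotype competed for the nearest end, a setting chosen after seeing the data, 3 member genes with 4 peaks remained in each list: egl-30, dgk-1 and gsa-1. By construction noncoding genes then take the sites of eat-16, egl-10, goa-1 and rgs-1. The median log2 ratio moved to -0.21 when recovered pileups were scaled by the lowest background, also chosen after seeing the data, and over all pairs it was then -0.11. Leaving out the pairs of each gene in turn, a further setting added after seeing the data, gave medians from -0.10 to -0.07. With only the stronger 50% of each list, the rgs-1 peak dropped out and 6 genes had a peak in both lists. Promoter overlap was not run.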
